A study of Homo sapiens with 4 samples.

Results

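Acute-phase and secreted antimicrobial genes were examined in OVCAR5, a human cell line established from ovarian cancer, after transduction with a hairpin against the transcription factor gene FOXK2 or with a control hairpin. The group held 10 genes of the 56655 rows of the count tables, namely SAA1, SAA2, SAA4, FGA, FGB, FGG, LCN2, SLPI, PI3 and ORM1, and each was found by its symbol. The genes were chosen by their measured values in this same comparison, so their differences are a description, and no p-value is given for them. The control group (shCtrl, 2 libraries) carried a non-targeting hairpin in a pLKO.1-puro lentiviral vector, and the knockdown group (shFOXK2, 2 libraries) carried a lentiviral hairpin directed at FOXK2. Cells of both groups were stably transduced and selected with puromycin, and the knockdown group is a line made with 1 hairpin. The study counts its replicates as biological, but the sources used here do not say whether they were separate cultures or transductions, so p-values measure the spread between these libraries alone.

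The acute-phase response is the change in secreted plasma proteins that follows infection or injury. It is best known in the liver, where interleukin-6 acts through STAT3 and interleukin-1 through NF-kB and C/EBP factors to raise transcription of serum amyloid A, fibrinogen and orosomucoid genes. Epithelial cells can make some of the same proteins, together with secreted antimicrobial proteins and protease inhibitors that protect mucosal surfaces, and LCN2, SLPI and PI3 are known as products of ovarian carcinomas.

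Library totals ran from 14284005 to 21950873 counts, and 3 counts, taken as the floor of detection, corresponded to 0.137 to 0.21 CPM, the count after scaling each library to the same total. The targeted gene FOXK2 was counted 1796 and 1499 times in shCtrl, against 1086 and 1084 times in shFOXK2. A log2 fold change of −0.36 (SE 0.25) gave an adjusted p-value of 0.257 in the quasi-likelihood test of edgeR, which did not resolve a fall of the targeted transcript from the spread between replicates. Under an offset on the A content of transcripts its direction turned, to 0.07 without and 0.06 with the replicate block, and the 2 other centrings of that offset gave −0.19 and −0.02. The paper itself reports a knockdown in OVCAR5, with less FOXK2 mRNA by quantitative PCR and less FOXK2 protein by western blot. Whether those measurements came from the same cultures as these libraries is not stated. Of 9 epithelial markers, 6 reached 10 CPM in every library. The 9 summed to 4354 and 5793 CPM in shCtrl and 4244 and 5410 CPM in shFOXK2, and keratin genes made up most of these sums. However, 4 of the 9 fell, with log2 fold changes of −4.02 for CDH1, −2.76 for MUC1, −1.96 for CLDN3 and −1.02 for CLDN4. EPCAM, KRT7, KRT8, KRT18 and KRT19 were not called. The hepatocyte markers ALB, APOB, APOC3 and CYP3A4 had at most 3 counts in every library, while CPS1 fell (452 and 246 counts against 96 and 154) and ASGR1 rose (18 and 26 against 72 and 85), and the 8 hepatocyte markers summed to 17.1 to 21.1 CPM in shCtrl, against 12 to 14.1 CPM in shFOXK2. PTPRC, MPO, ELANE, CSF3R and FCGR3B, which mark leukocytes and neutrophils, had at most 3 counts in every library, while the 8 genes of that list summed to 7.62 and 8.41 CPM in shCtrl, against 1.27 and 3.02 CPM in shFOXK2. The fibroblast markers COL1A2 and DCN had at most 3 counts in every library, COL1A1 had 324 and 215 against 226 and 229, and the 5 genes of that list summed to 13.7 to 14.8 CPM in shCtrl, against 13.1 to 16.3 CPM in shFOXK2. In bulk RNA, fewer cells that make a transcript and less transcript in each cell cannot be told apart.

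SAA1 and SAA2 are neighbouring paralogs that encode the inducible serum amyloid A proteins, small apolipoproteins of high-density lipoprotein. Their coding sequences are both 366 bases long and identical at 355 positions (97%), which matters for counting because a read of 50 bases that lies in an identical stretch cannot be assigned to either gene. A stretch without a difference, coding bases 46 to 165 counted from the A of the start codon (hg38), is shown first.

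SAA1: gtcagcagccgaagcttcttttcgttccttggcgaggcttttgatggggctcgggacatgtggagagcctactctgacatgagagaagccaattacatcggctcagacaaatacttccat

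SAA2: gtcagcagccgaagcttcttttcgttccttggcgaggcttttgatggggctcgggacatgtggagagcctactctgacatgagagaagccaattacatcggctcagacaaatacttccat

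Of the 11 coding differences, 10 fall in coding bases 205 to 324, shown next with the differing bases in capitals. A read from here can be told apart.

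SAA1: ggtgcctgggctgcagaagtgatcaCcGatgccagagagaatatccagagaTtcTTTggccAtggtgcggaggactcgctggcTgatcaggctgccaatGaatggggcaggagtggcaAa

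SAA2: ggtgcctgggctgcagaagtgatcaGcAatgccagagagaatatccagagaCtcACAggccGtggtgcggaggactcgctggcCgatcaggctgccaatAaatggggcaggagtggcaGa

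Every 50-base window of the canonical transcripts was compared with all annotated transcripts. For SAA1, 59.1% of 469 windows occurred in SAA1 alone and 40.9% also occurred in SAA2. For SAA2, 53.3% of 527 windows were its own, 36.6% also occurred in a gene elsewhere and 10.1% were shared with the overlapping readthrough gene SAA2-SAA4 alone. SAA4, the constitutive family member, was 73% identical to SAA1 over its coding bases and shared no window with SAA1 or SAA2, but 74% of its windows also belonged to SAA2-SAA4. The counts of SAA2 and SAA4 therefore carry the uncertainty of an overlapping gene, and those of SAA1 and SAA2 that of a near-identical copy. LCN2, SLPI, PI3, FGA and FGG windows were all their own, and 98.3% of FGB windows were.

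**Figure D1:**
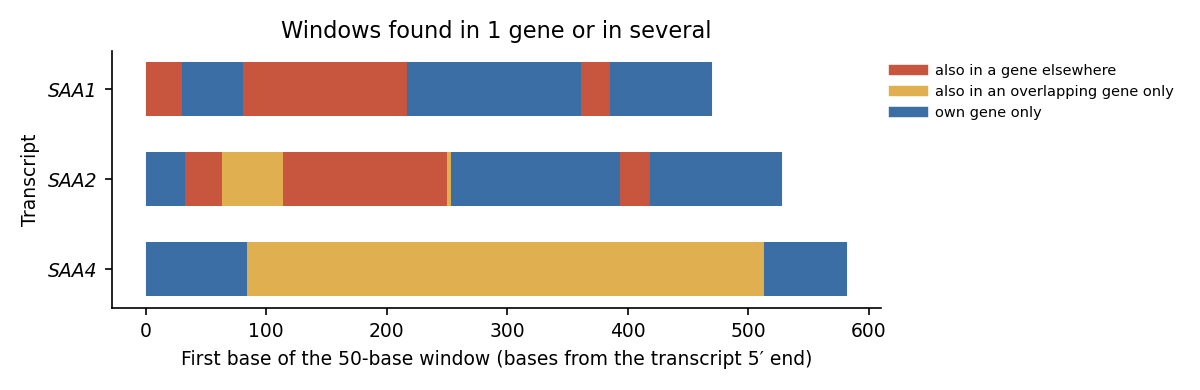
Each row is a canonical transcript (SAA1, SAA2, SAA4), the x axis gives the first base of each 50-base window from the transcript 5′ end, and colour shows whether the window occurs in that gene alone, also in a gene elsewhere, or also in an overlapping gene alone. Shared windows of SAA1 and SAA2 lie mostly in the 5′ part, while SAA4 is shared with SAA2-SAA4 along 74% of its windows.

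SAA1 and SAA2 were abundant in shCtrl cells and far lower in shFOXK2 cells, while SAA4 had few counts already in shCtrl. SAA1 (chromosome 11 of hg38, 18266260 to 18269977, plus strand) gave 11616 and 10198 counts in shCtrl, against 17 and 66 in shFOXK2. Both shFOXK2 libraries lay far below both shCtrl libraries, and the smallest ratio between any shCtrl and any shFOXK2 library was 144. Pooled over libraries, SAA1 was 222-fold lower in shFOXK2 (95% exact counting interval 179 to 279), and the fitted log2 fold change, a separate estimate here and below, was −7.86 (SE 0.44). In CPM this was 578 ± 81 against 2.41 ± 1.72 (SD, n = 2 each).

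SAA2 (chromosome 11, 18239223 to 18248668, minus strand) gave 3799 and 2591 counts in shCtrl, against 0 and 8 in shFOXK2. The groups did not overlap, and the library with 0 counts allows up to 3 by the floor. The pooled ratio was 675 (342 to 1565). The fitted log2 fold change was −9.37 (SE 0.54), which ranked 4 among all falls of tested genes. SAA2 made up 24.6% and 20.3% of the sum of SAA1 and SAA2 counts in shCtrl. In shFOXK2 it made up 0% (exact binomial interval up to 19.5%) and 10.8% (4.78% to 20.2%), on 17 and 74 counts. SAA4 (chromosome 11, 18231355 to 18236802, minus strand) gave 34 and 11 counts in shCtrl, against 0 in both shFOXK2 libraries, and was at least 5.88-fold lower against a floor of 3 counts per library, or at least 3.65-fold without shCtrl replicate 1. SAA2-SAA4 and the pseudogene SAA3P had 0 counts in every library. Of the 743 exonic bases of SAA2-SAA4, 476 also lie in SAA4 and 267 in SAA2, which leaves none of its own. Its 0 counts therefore do not show that it is absent, since reads of overlapping genes may not be assigned. SAA4 had 154 of 630 exonic bases outside SAA2-SAA4, so its counts may leave out reads.

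Fibrinogen is assembled from chains encoded by FGA, FGB and FGG, and thrombin cleaves it to form fibrin. FGA (chromosome 4, 154583126 to 154590742, minus strand), the alpha chain, had 189 and 127 counts in shCtrl, against 0 and 2 in shFOXK2, a pooled ratio of 134 with a counting interval of 36.7 to 1108. FGB (chromosome 4, 154563011 to 154572807, plus strand), the beta chain, had 293 and 139 counts in shCtrl, against 3 in each shFOXK2 library, a ratio of 60.9 (27.7 to 167). Neither chain overlapped between groups. FGG (chromosome 4, 154604134 to 154612967, minus strand), the gamma chain, had 6 and 1 counts in shCtrl, against 1 and 0 in shFOXK2. These groups overlapped in raw counts, the ratio of 5.92 had a counting interval of 0.76 to 267, and FGG did not pass the filter on low counts. Levels were also scaled for transcript length (TPM, which allows genes to be compared). The shCtrl level of FGA was 7.7 ± 1.32, that of FGB 6.31 ± 2.56 and that of FGG 0.174 ± 0.166 (SD, n = 2), so the gamma chain lay well below the other two chains already in control cells.

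LCN2 encodes lipocalin 2, a secreted protein that binds bacterial siderophores and withholds iron from bacteria. LCN2 (chromosome 9, 128149071 to 128153453, plus strand) gave 18727 and 15997 counts in shCtrl, against 492 and 338 in shFOXK2. The groups did not overlap, and LCN2 was 35.4-fold lower (33 to 37.9) by pooled counts, with a fitted log2 fold change of −5.11 (SE 0.34). At 2300 ± 6.21 TPM it ranked 46 of 35754 genes with a length-scaled level in shCtrl. SAA1 ranked 48 there, with 2289 ± 38.1 TPM. The scaling used the whole transcript, while 40.9% of SAA1 windows also occurred in SAA2 and no LCN2 window was shared. If reads from shared windows were dropped, the TPM of SAA1 is too low, so the 2 levels cannot be ranked against each other. In shFOXK2, LCN2 ranked 2280 with 64 ± 26 TPM and SAA1 ranked 7902 with 9.31 ± 6.78 TPM.

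SLPI and PI3 encode secreted inhibitors of neutrophil elastase with whey acidic protein domains, and both are also antimicrobial. SLPI (chromosome 20, 45252239 to 45254564, minus strand) gave 1164 and 1098 counts in shCtrl, against 218 and 159 in shFOXK2. It showed the smallest difference among those that passed the filter, a pooled ratio of 5.07 (4.55 to 5.67) and a fitted value of −2.33 (SE 0.32) on the log2 scale, with no overlap between groups. PI3 (chromosome 20, 45174902 to 45176544, plus strand), which encodes elafin, had 165 and 130 counts in shCtrl, against 8 and 2 in shFOXK2, a ratio of 24.9 (13.4 to 52.5). PI3 was 12.4% and 10.6% of the sum of SLPI and PI3 counts in shCtrl, against 3.54% (1.54% to 6.86%) and 1.24% (0.151% to 4.42%) in shFOXK2. ORM1 (chromosome 9, 114323098 to 114326479, plus strand), which encodes the plasma protein orosomucoid, and its paralog ORM2 had 0 counts in every library, and no ratio can be given.

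**Figure D2:**
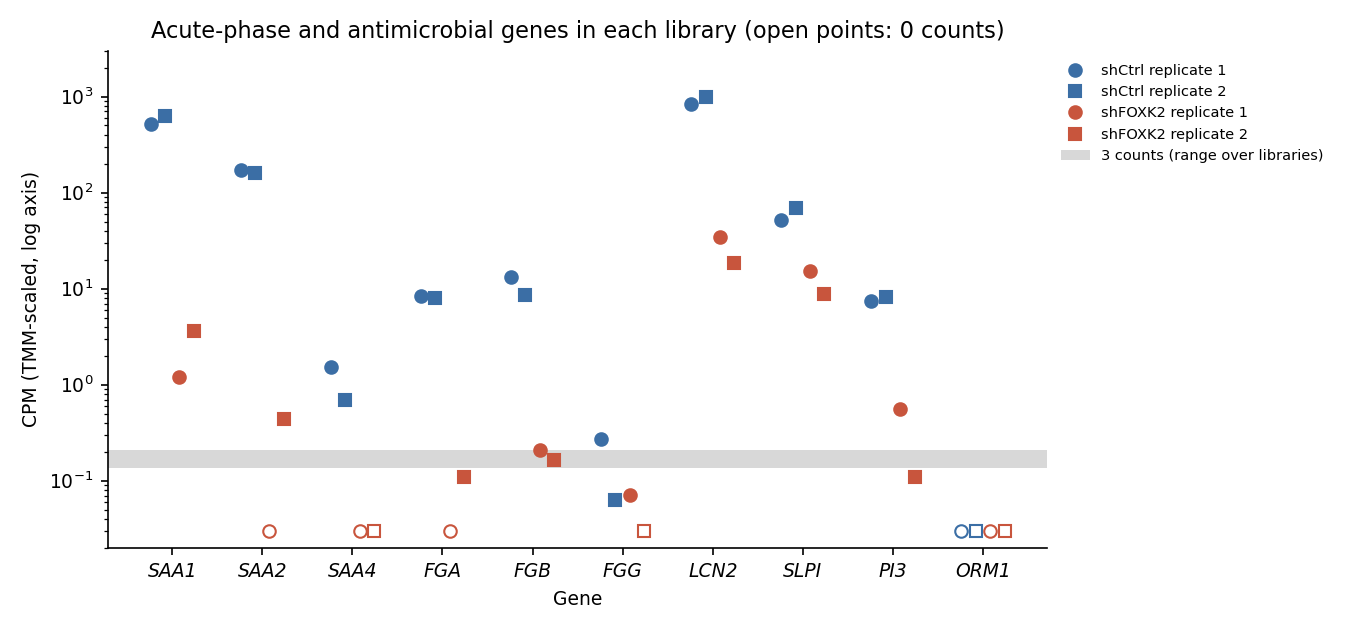
CPM on a log axis for each gene (x axis) in each shCtrl (blue) and shFOXK2 (red) library, with circles for replicate 1, squares for replicate 2, open points for 0 counts and a grey band for 3 counts. The band used raw totals and the points TMM-scaled totals. SAA1 and LCN2 stand highest in shCtrl, all red points of SAA1, SAA2, SAA4, FGA, FGB, LCN2, SLPI and PI3 lie below the blue points, and FGG lies near or under the band.

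Of the 10 genes, 8 passed the filter on low counts and all 8 were among the genes called lower in shFOXK2, where 48.4% of the 16417 genes tested were called in either direction, 22.7% lower and 25.7% higher. Nothing is read from this count or from the lack of overlap between groups, since the genes were selected on this comparison. In addition, SAA2, SAA4, FGA, FGB and PI3 passed the filter through the shCtrl libraries. How many of all tested genes had groups without overlap was not computed. In 7 of the 8 the log2 fold change was under −4, a size reached by 140 genes in all. SLPI was the exception, at rank 603 of the falls. As a share of all counts, the 10 genes took 0.164% (95% Wilson interval 0.162% to 0.166%) and 0.18% (0.178% to 0.182%) in shCtrl, against 0.00517% (0.00481% to 0.00556%) and 0.00326% (0.003% to 0.00354%) in shFOXK2.

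**Figure D3:**
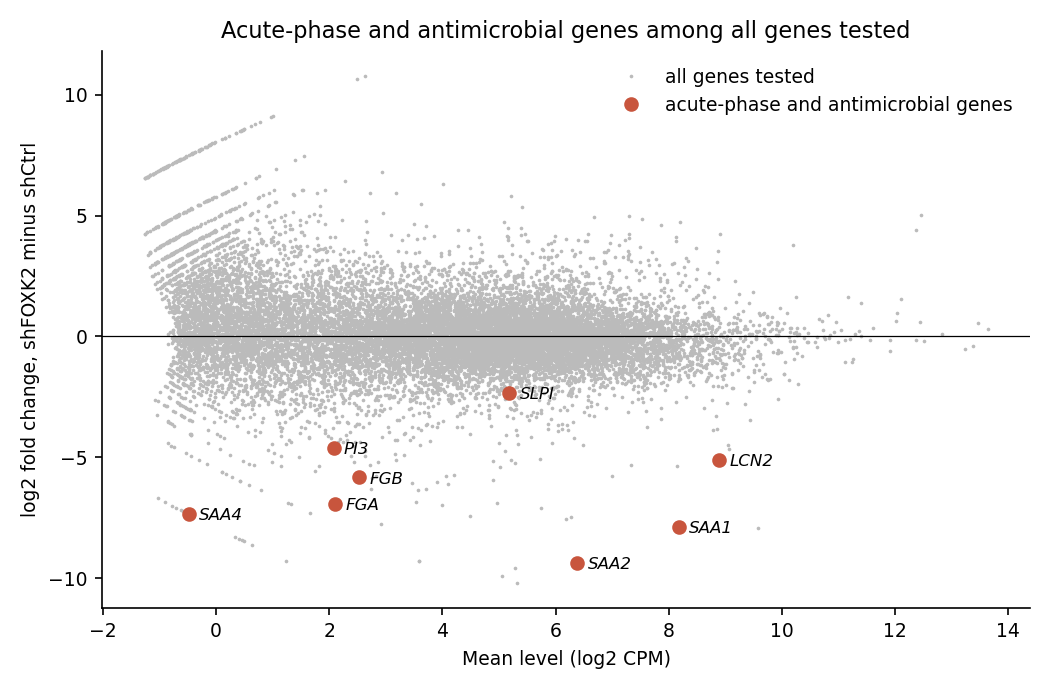
The log2 fold change, shFOXK2 minus shCtrl (y axis), against the mean log2 CPM (x axis) for 16417 genes (grey), with the 8 acute-phase and antimicrobial genes that passed the filter in red. SAA1, SAA2 and LCN2 combine a high mean level with log2 fold changes of −7.86, −9.37 and −5.11, while SAA4, FGA, FGB and PI3 lie at low mean levels.

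The residual levels in shFOXK2 differed in order between the libraries. SAA1 and SAA2 were higher in replicate 2, at 3.63 against 1.2 CPM for SAA1. LCN2 was higher in replicate 1, at 34.6 against 18.6 CPM, and so were SLPI, at 15.3 against 8.73 CPM, and PI3, at 0.562 against 0.11 CPM. Relative to the sum of SAA1 and LCN2 counts, SAA1 took 38.3% and 38.9% in shCtrl, against 3.34% (1.96% to 5.29%) and 16.3% (12.9% to 20.3%) in shFOXK2, so the shFOXK2 libraries differed from each other beyond counting error while the shCtrl libraries lay close together.

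Promoter sequences from RefSeq (GRCh38.p14, 250 bases before to 50 after the start) were used for 6 of the 10 genes, SAA4, FGA, FGB, FGG, LCN2 and ORM1. Both strands were searched for letters bound by acute-phase factors and by forkhead proteins. C/EBP letters (TTNNGCAA) occurred in SAA4, FGA, FGB and LCN2, and in 10.5% of 35116 promoters of the same length. STAT letters (TTCNNNGAA, 7.66% of promoters) occurred in FGA, and AP-1 letters (TGANTCA, 7.71%) in LCN2. NF-kB was searched with a strict pattern only (1.91% of promoters), and looser forms of its site were not searched. Neither that pattern nor the forkhead letters (TGTTTAC, 3.42%) occurred in these windows. This says no more than that these exact letters are not there, and NF-kB sites of another form may be present, unmarked in the stretches below. The 180 bases before the start are shown for 3 genes, one from each family with a match, with matches in capitals.

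SAA4, chr11:18236803-18236982, minus strand: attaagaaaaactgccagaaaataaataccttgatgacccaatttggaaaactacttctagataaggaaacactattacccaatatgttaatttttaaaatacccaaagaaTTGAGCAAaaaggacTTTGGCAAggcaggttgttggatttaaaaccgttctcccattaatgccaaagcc

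FGA, chr4:154590743-154590922, minus strand: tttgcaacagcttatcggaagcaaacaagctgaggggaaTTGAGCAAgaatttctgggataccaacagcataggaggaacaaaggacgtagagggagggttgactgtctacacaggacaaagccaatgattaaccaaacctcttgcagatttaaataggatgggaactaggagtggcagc

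LCN2, chr9:128149273-128149452, plus strand: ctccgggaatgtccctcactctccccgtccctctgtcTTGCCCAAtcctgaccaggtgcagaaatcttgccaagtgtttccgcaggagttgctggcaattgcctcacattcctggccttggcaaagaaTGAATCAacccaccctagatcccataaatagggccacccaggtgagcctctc

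In SAA4 the C/EBP matches began at −69 and −54 from the start, and another at −236 lies outside the stretch shown. In FGA the C/EBP match began at −141 and the STAT match at −231, and in LCN2 the C/EBP match began at −143 and the AP-1 match at −52. A match is a description of the letters and not of binding.

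Other genes of the same systems were described from 7 lists. These were compiled with earlier results of these data known and hold none of the 10 genes. Several listed genes passed the filter through 1 group alone, among them HP, LBP, CP, DEFB1, BPIFB1, FPR1, CDH5, IL6, IL1A and TNF through shCtrl. HPX, SPINK5 and F2 passed through shFOXK2. Counts called, medians and adjusted p-values of the lists are therefore descriptions, beside shares of 22.7% lower and 25.7% higher over all genes tested. Of 15 other positive acute-phase genes, those whose plasma proteins rise in the response, 6 passed the filter. Of these, 4 fell and 1 rose, with a median log2 fold change of −2.62 against 0.04 over all genes tested. CP, which encodes the copper carrier ceruloplasmin, fell from 7 ± 3.47 to 0.388 ± 0.151 CPM (−4.13 ± 0.52 SE on the log2 scale). Its fitted values were −5.81 to −5.51 under the A-content offsets and −3.53 without shCtrl replicate 1. HP, which encodes haptoglobin, a haemoglobin scavenger, had a log2 fold change of −3.12, LBP, a binding protein for bacterial lipopolysaccharide, one of −2.98, and SERPINA1, an elastase inhibitor, one of −2.26. HPX, which encodes the haem carrier hemopexin, had 5 and 1 counts in shCtrl, against 9 and 11 in shFOXK2 and rose by a log2 fold change of 1.95 (adjusted p-value 0.0271), a call that the DESeq2 Wald test did not make (adjusted p-value 0.208) and that was lost when any single library was left out. Of 8 negative acute-phase genes, whose plasma proteins fall in the response, 2 passed the filter and 1, SERPINA6, fell (53 and 54 counts against 1 and 15), with a list median of −1.06.

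Among 30 other antimicrobial genes, 6 passed the filter, 4 fell and 1 rose, with a median of −2.43. DMBT1, a mucosal scavenger receptor protein that binds bacteria, fell from 348 ± 2.3 to 40.8 ± 9.01 CPM (−3.09 ± 0.26 SE on the log2 scale, adjusted p-value 2.42e-06). DEFB1, an epithelial beta-defensin, had 46 and 52 counts in shCtrl, against 0 and 2 in shFOXK2. ANG, a secreted ribonuclease, had a log2 fold change of −2.65 and BPIFB1, a secreted airway protein, one of −2.21. DESeq2 did not call BPIFB1 (adjusted p-value 0.121), nor did the A-content offset with replicate block. The call of BPIFB1 was also lost without either shCtrl library or without shFOXK2 replicate 2. LEAP2, a liver-expressed peptide, rose from 14 counts in each shCtrl library to 42 and 54 in shFOXK2. Of these 30 genes, 13 had 0 counts in every library.

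Of 16 other antiprotease genes, 9 passed the filter, 3 fell and 1 rose, and the median was −0.41. SPINT1, an inhibitor of the hepatocyte growth factor activator, fell from 315 ± 16.6 to 7.9 ± 0.455 CPM (−5.32 ± 0.28 SE on the log2 scale, adjusted p-value 1.9e-07). WFDC2, which encodes the ovarian cancer serum marker HE4 and has the same type of domain as SLPI and PI3, had 2163 and 1902 counts in shCtrl, against 99 and 194 in shFOXK2, with a fitted log2 fold change of −3.61. SERPINB1, an inhibitor of neutrophil proteases, fell by 1.36 on the log2 scale. SPINK5, an inhibitor of kallikreins, rose from 3 and 2 counts to 16 and 87, a fitted log2 fold change of 4.46 that was 2.43 to 2.76 under the A-content offsets and 3.01 without shFOXK2 replicate 2. The other 5 genes did not pass the test.

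Among 16 receptor genes for these secreted proteins, 13 passed the filter, 8 fell and 1 rose, with a median of −1.93. ICAM1, which binds fibrinogen, had 11782 and 9373 counts in shCtrl, against 230 and 195 in shFOXK2, with a fitted value of −5.37 ± 0.30 (SE) on the log2 scale (adjusted p-value 2.19e-07). CDH5, the endothelial cadherin that binds fibrin, had 76 and 33 counts in shCtrl, against 0 in both shFOXK2 libraries, at least 14.5-fold lower against the floor. FPR1, a formyl peptide receptor, had a log2 fold change of −3.69 and ITGAM, a subunit of a leukocyte fibrinogen receptor, one of −3.35. AGER, a receptor reported to bind serum amyloid A, rose from 49 and 30 counts to 99 and 175. ITGAM is also one of the 8 leukocyte and neutrophil markers and made up most of their counts in the shCtrl libraries.

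The regulators of the response gave the list with the most tested genes. Of 30 genes, 28 passed the filter, 19 fell and 1 rose, and the median was −1.36. IL6, the main inducer of the acute phase, had 491 and 368 counts in shCtrl, against 6 and 0 in shFOXK2 (−6.84 ± 0.62 SE on the log2 scale). IL1B fell from 329 and 308 counts to 6 and 13 (−4.85, adjusted p-value 2.77e-06), and IL1A, the other interleukin-1, fell by 4.73 on the log2 scale, with fitted values of −5.76 to −5.49 under the A-content offsets. TNF had 58 and 36 counts in shCtrl, against 0 in both shFOXK2 libraries, at least 12.9-fold lower against the floor.

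Transcription factors of the response had smaller log2 fold changes than the 4 cytokines named. Those 4 were named as the largest falls of the list, so this order follows from the choice and was not tested. NFKBIZ, a nuclear co-regulator of LCN2 transcription, fell from 108 ± 17.4 to 22.5 ± 5.51 CPM (−2.26 ± 0.28 SE on the log2 scale, adjusted p-value 3.89e-05). CEBPB and CEBPD had log2 fold changes of −2.06 and −1.73, and STAT3 one of −0.97 (adjusted p-value 0.00323). NR3C1, the glucocorticoid receptor, rose by a log2 fold change of 1.10 (adjusted p-value 0.0135), a call lost when shCtrl replicate 2 was left out. These are differences of transcripts, and no activity of the factors was measured.

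Of 17 genes of fibrin formation and breakdown, 12 passed the filter, 6 fell and 2 rose, with a median of −0.55. FN1, which encodes fibronectin, fell from 900 ± 29.3 to 27.6 ± 8.75 CPM (log2 fold change −5.03, adjusted p-value 3.16e-07). PLAT, the tissue plasminogen activator, fell from 21384 and 17758 counts to 409 and 987. F10, coagulation factor X, fell by 1.69. F3, tissue factor, rose from 62.3 ± 4.05 to 121 ± 40.6 CPM (adjusted p-value 0.0101), and its call was lost without shFOXK2 replicate 1. F2, prothrombin, had 3 and 8 counts in shCtrl, against 13 and 18 in shFOXK2, and DESeq2 did not call it (adjusted p-value 0.21), nor was it called without shCtrl replicate 1 or shFOXK2 replicate 2.

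**Figure D4:**
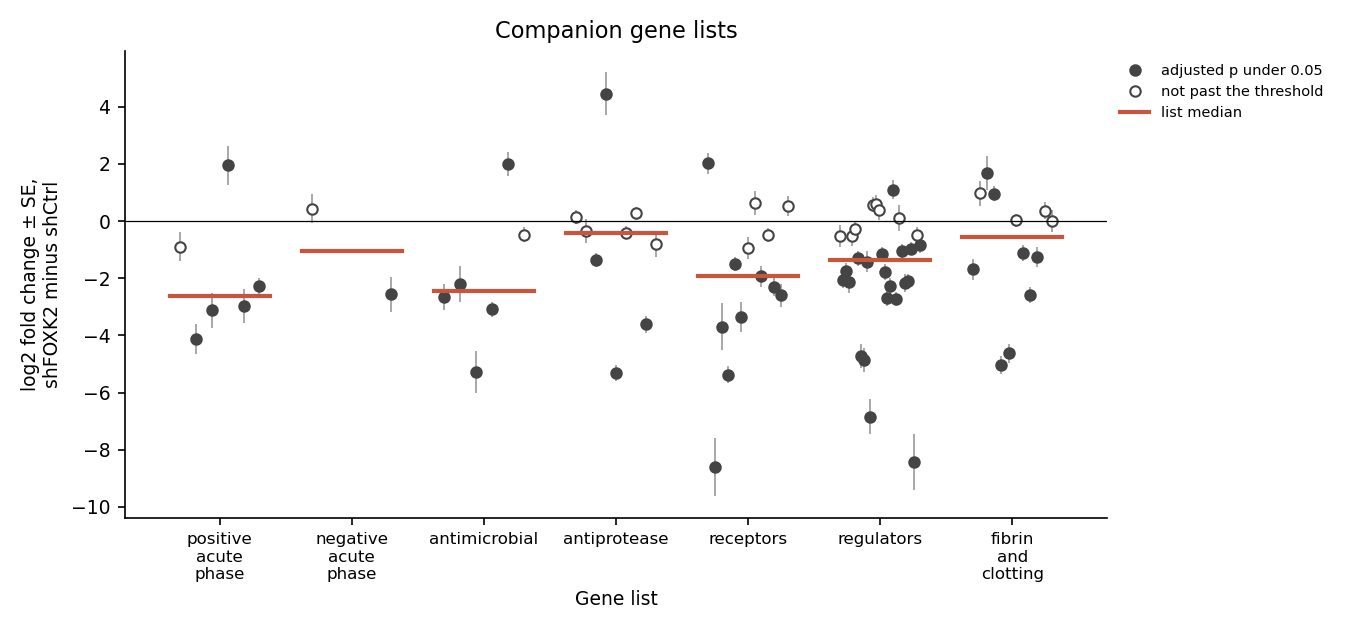
The log2 fold change ± SE, shFOXK2 minus shCtrl (y axis), of each tested gene in the 7 lists (x axis), with filled points for an adjusted p-value under 0.05, open points for genes not past it and a red line for the list median. The medians run from −2.62 for the positive acute-phase genes to −0.41 for the antiproteases, and each list except the negative acute-phase genes holds at least 1 gene that rose.

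Genes within 250 kb of the acute-phase and antimicrobial genes were then described, a view chosen after their values were seen. Around the serum amyloid A genes, 1 of 9 tested neighbours fell and 4 rose, with a median log2 fold change of 0.32, and TPH1 rose most, from 1 and 0 counts to 17 and 25. Around the fibrinogen genes 1 of 3 fell and 1 rose, and around LCN2 3 of 15 fell and 1 rose, with medians of 0.08 and 0.00. Around SLPI and PI3, 6 of 10 fell and 1 rose, with a median of −1.43, and WFDC2 had the lowest value there. Over all genes tested, 22.7% were called lower and 25.7% higher. The neighbours are few, and a local pattern was not tested.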

How the data were processed

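RNA-seq was examined in 4 OVCAR5 libraries. The authors isolated poly(A) RNA, sequenced single-end reads of 50 bases, aligned them to hg38 with STAR 2.5.2 and assigned them to genes with HTSeq. Each library has its own deposited table of raw counts by symbol, made by the authors without scaling. The annotation, strand setting and counting mode are not given in the sources used here, and reads of overlapping genes cannot be told apart. HTSeq in its usual mode drops reads that fit several places.

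Counts were filtered with filterByExpr, scaled by TMM and compared by the 2-sided quasi-likelihood test of edgeR 4.0.16 in R 4.3.3, with Benjamini-Hochberg adjustment over 16417 genes and a threshold of 0.05. CPM used TMM-scaled totals, except for the CPM range of the floor, which used raw totals. TPM used the GENCODE v44 canonical transcript length (35754 of 56655 symbols matched). The SE was the absolute log2 fold change over the square root of F. Counting intervals are exact at 95%, shares of all counts have Wilson intervals, and both, like the floor of 3 counts, cover counting error only. Alternatives used DESeq2 1.42.0, other scalings and filters, the edgeR exact test, the replicate block, a lowess offset (span 0.2) on transcript A content and leaving out each library. On simulated counts for shCtrl against shFOXK2 (16417 genes, 200 changed, 1 run) the test found 78% of those changed, with 3.11% false among its calls. The simulation gave every gene the same dispersion and changed far fewer genes than were called in the data. These shares are therefore not error rates of the calls reported here.

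The members and lists were chosen with earlier results of these data known. Genes named are the 10 members, SAA3P, SAA2-SAA4, ORM2, FOXK2, up to 4 of the largest falls and 4 of the largest rises called in each list, and CEBPB, CEBPD, NFKBIZ, STAT3, IL6 and IL1B. A gene that this rule would name is not reported here. Markers were named as a check, and neighbours were chosen after their values were seen. Groups and replicate numbers came from the labels.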

Additional observations from a re-analysis of the deposited data

How the results depend on the processing

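Calls of the members support nothing, since the genes were selected on this comparison. With at least 10 counts in every library 3 members were left to test, against 8, and without shCtrl replicate 1 SAA4 was no longer tested. The same filter of 10 counts left 1 call among the positive acute-phase genes, 0 among the negative ones, 2 among the antimicrobial genes and 5 among the receptors, because fewer genes were tested, and with no filter the negative acute-phase list had 2 calls and the antimicrobial list 8. Over all genes the alternatives called between 6008 and 9207, and leaving out a library between 6771 and 7775. No filter shifted the median log2 fold change of shared genes by −0.102.

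The A-content offset was run with 3 centrings, and the share of called genes that were higher depended on the choice. With each library's offset centred on its mean, the version run first, 6853 genes were called and 55.1% were higher, with a median shift of 0.345. The other 2 centrings were tried after that result was seen. Centred on the median, 7134 genes were called and 38.8% were higher, with a shift of 0.088, and without centring 6914 were called and 49.9% were higher, with a shift of 0.261. The main comparison had 53.1% higher. FGB moved from −5.83 to between −6.57 and −6.32. A composition value was held by 13887 of the tested genes.

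No label says what the replicate numbers share, and deviations of same-numbered libraries correlated at −0.113. With the replicate block 7270 genes were called, and with crossed numbers, added after the data were seen, 8350. No member or list count moved by over 1.5 times in either fit.

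Member log2 fold changes with a library left out ran from −8.94 to −7.34 for SAA1, −14.51 to −8.56 for SAA2, −10.18 to −6.16 for FGA, −5.65 to −4.76 for LCN2, −2.81 to −2.01 for SLPI and −6.08 to −3.8 for PI3. Leaving out shFOXK2 replicate 2 moved SAA1, SAA2, FGA and PI3 by over 1.5 times, and leaving out shFOXK2 replicate 1 moved SAA2, FGA and PI3. The same held for IL6 (−11.73 without shFOXK2 replicate 1, −5.74 without replicate 2), DEFB1 (−4.52, −8.53), FPR1 (−2.94, −6.95), ITGAM (−2.68, −5.17) and SERPINA6 (−1.80, −5.23), and without shFOXK2 replicate 2 for LBP (−4.31) and ANG (−3.33). Without shCtrl replicate 1 NR3C1 was at 1.74, HPX at 3.13 and F2 at 0.89, and without shCtrl replicate 2 HPX was at 1.36 and F2 at 2.69. Values that rest on a lone shFOXK2 library at 0 counts (SAA2, FGA, IL6, DEFB1 and FPR1) depend on the prior count. Shared SAA1 windows were 55.9% at 25 bases and 26.4% at 75.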
